A study of Bubalus bubalis with 36 samples.

Results

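Omental adipose tissue (OAT), the fat of the fold of peritoneum that hangs from the stomach, was set against perirenal adipose tissue (PRAT), the fat around the kidneys, in river buffaloes. Both are visceral depots. The 12 libraries of these depots were chosen by their depot label from the 36 libraries of 6 depots in the series, and hold 6 OAT and 6 PRAT libraries. By the labels, an OAT and a PRAT library with the same number came from the same animal. The deviations of same-numbered libraries from their depot means correlated at 0.655 to 0.741 in animals 3 to 6, but at -0.238 in animal 1 and -0.573 in animal 2. OAT 1 correlated best with PRAT 2 and OAT 2 with PRAT 6, and the labelled pairs were kept. Animals 1 to 3 were males labelled Murrah and animals 4 to 6 were females labelled Nili-Ravi, so by the labels sex and breed cannot be told apart. The study's own sample list gives all the animals as Murrah, and the labels were used here. They were 19 to 21 months old, had been fattened and received no treatment. Each library is a piece of whole tissue, with every cell type that the piece held.

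Omental fat is covered by mesothelium and carries small lymphoid clusters that hold B cells and macrophages, while perirenal fat lies behind the peritoneum against the kidney and adrenal gland. Fat cells of different depots arise from different stretches of the embryonic mesoderm. They keep part of that origin as the expression of HOX genes, a family of transcription factors whose members are switched on in order along the body axis, and of other developmental transcription factors. Perirenal fat of newborn ruminants is rich in mitochondria and loses its thermogenic character after birth.

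The values are FPKM, the fragments of a gene scaled to its length and to the mapped fragments of its library. They were compared as log2(FPKM + 0.1), OAT minus PRAT, with the animal as a block, over the 17715 gene models whose mean over the 12 libraries was above 0.1 FPKM. A positive difference means a higher level in OAT, and the threshold was an adjusted p of 0.05 with limma and Benjamini-Hochberg adjustment. Levels are given per library in the order of animals 1 to 6, and all differences are on the log2(FPKM + 0.1) scale, which understates changes of low genes.

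Of the 12 libraries, 5 stood apart in what tissue they held. OAT 1, OAT 4, PRAT 2 and PRAT 4 were rich in lymphocyte transcripts and poor in adipocyte transcripts. MS4A1, the B cell surface protein CD20, was at 461, 2.38, 37.7, 198, 1.02 and 1.80 FPKM in OAT and at 5.87, 472, 9.19, 307, 0.864 and 0.898 FPKM in PRAT. The summed FPKM of 14 B cell and plasma cell genes ran between 166 and 2996 in OAT and between 92.5 and 2933 in PRAT. The sum of 19 adipocyte genes was 983 to 1181 in OAT 1 and OAT 4 and 830 to 3379 in PRAT 4 and PRAT 2, against 8598 to 15155 in the other OAT libraries and 12309 to 18663 in the other PRAT libraries. ADIPOQ, the adipocyte hormone adiponectin, was detected in all 12 libraries, at 50.4 to 1933 FPKM in OAT and 32.6 to 3293.6 FPKM in PRAT.

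**Figure D1:**
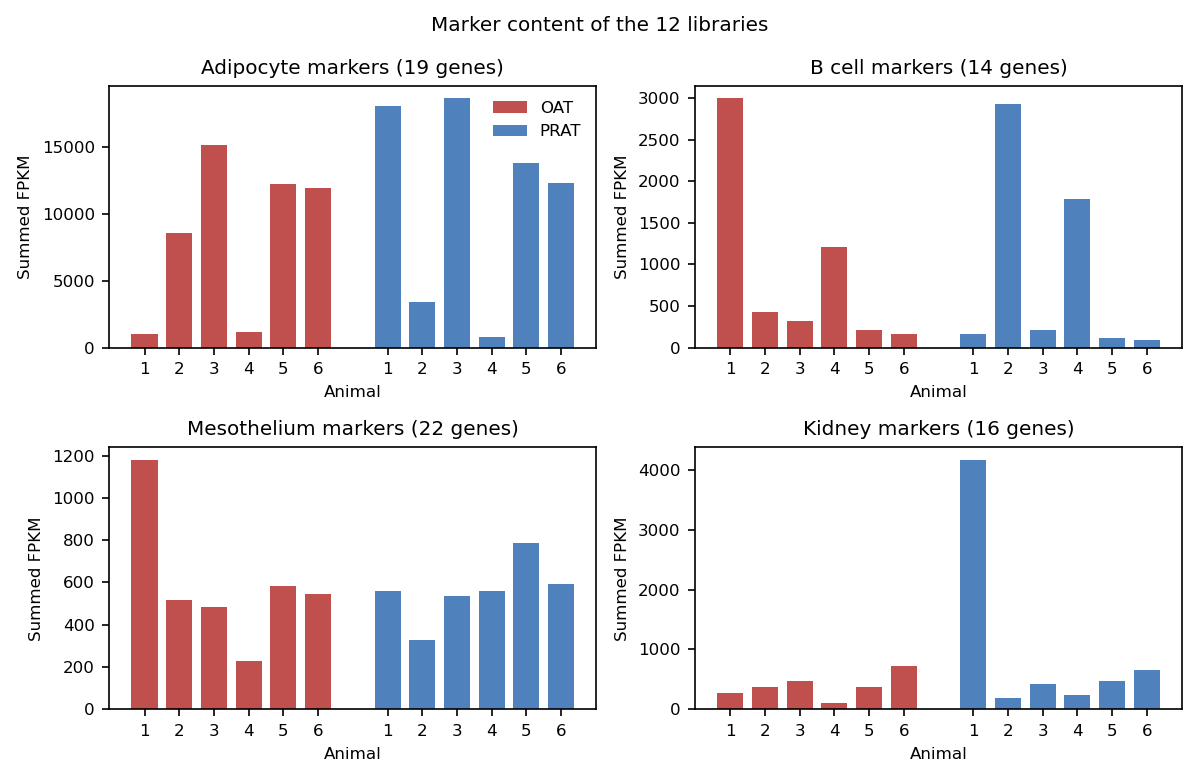
Summed FPKM of 4 marker lists in each library, with OAT in red and PRAT in blue and animals 1 to 6 on the horizontal axis. OAT 1, OAT 4, PRAT 2 and PRAT 4 are high for B cell markers and low for adipocyte markers, and PRAT 1 reaches 4167 for kidney markers.

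PRAT 1 also held kidney transcripts. LRP2 and CUBN, the endocytic receptors of the proximal tubule, were at 1572 and 1200 FPKM there, and at most 14.2 and 34.4 FPKM in the other PRAT libraries. UMOD of the thick ascending limb was at 8.46 FPKM in PRAT 1 and at most 0.0756 FPKM in the other PRAT libraries. All 16 kidney markers were tested, and their summed FPKM was 96.1 to 721 in OAT and 188 to 4167 in PRAT, or 188 to 655 without PRAT 1. OAT 1 was high in mesothelial transcripts, with KRT8 at 425 FPKM, MUC16 at 44.5 FPKM and MSLN at 9.64 FPKM. MSLN, a defining mesothelial surface protein, was at most 0.742 FPKM in the other OAT libraries and listed at 0 in 4 of 6 PRAT libraries, and it was at 0 in OAT 4 and OAT 6, so this marker was absent or near 0 in most OAT libraries. Of 22 mesothelial genes tested 18 had the higher mean in OAT (median 0.74) and none passed, and their summed FPKM was 228 to 1180 in OAT and 325 to 785 in PRAT. Only animals 3, 5 and 6 had both libraries outside the 5 that stood apart. Results are therefore also given without the 4 lymphoid-rich libraries, without those and PRAT 1, or in animals 3, 5 and 6. OAT 3 still held some lymphocyte transcripts. The B cell and plasma cell genes summed to 323 FPKM there, against 212 in OAT 5 and 166 in OAT 6. The sum of 24 T cell genes was 290 FPKM, against 63.1 and 111. Within the 12 libraries, the fits that leave out single libraries break the pairs and so also leave out the animal block, which changes 2 choices at once.

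OAT and PRAT differed in 2 gene models past the threshold, 0.0113% of those tested. Both were HOX genes, HOXA9 and HOXA10, and both fell in OAT. No gene model was called higher in OAT. At an unadjusted p under 0.05 there were 760 gene models, 4.29%, of which 383 (2.16%) were higher in OAT and 377 (2.13%) higher in PRAT. The same paired test called between 9 and 2834 gene models in each of the other 14 pairs of depots, so OAT and PRAT had the fewest calls of the 15 pairs. These counts share libraries and were not compared by a test. The count for OAT and PRAT took in all 4 lymphoid-rich libraries and the PRAT library with kidney transcripts. It was 31 without the 4 lymphoid-rich libraries and without the animal block, while the other pairs are given with the paired test only. The part of tissue content and of the pairing in the low count was not tested, so the counts do not rank how alike the depots are.

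On the log2(FPKM + 0.1) scale, the difference lay within 1 unit for most gene models, by intervals not adjusted for their number. For low genes this does not bound the fold change of FPKM within 2-fold. The whole 95% interval of the log2 difference lay between -1 and 1 for 11753 gene models, 66.3% of those tested, and its median half-width was 0.57. The values of OAT and PRAT did not overlap in 44 gene models (0.248%), of which 26 (0.147%) were higher in OAT and 18 (0.102%) in PRAT. All 6 animals had the higher level in OAT in 274 gene models (1.55%) and in PRAT in 355 (2%).

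The count of calls depended on the libraries and on how the spread was estimated. When all 36 libraries shared one estimate of the spread, 28 gene models passed (0.158%), 14 in each direction. That estimate also takes in the other depots, including those where a gene was near 0 FPKM. Without the 4 lymphoid-rich libraries and without the animal block, 31 passed (0.175%), 17 higher in OAT and 14 in PRAT, and without PRAT 1 as well 28 passed (0.158%), 17 and 11. In animals 3, 5 and 6 alone none passed, although 3265 had an unadjusted p under 0.05. Chosen after seeing the data, leaving the 5 libraries out of the fit on 36, with the animal kept as a term, gave 35 calls (0.198%). HOXA9 and HOXA10 were among the calls in each of these settings that made 28 or more. At an unadjusted p under 0.05 and a log2 difference of at least 1.5, the cut-offs of the study, there were 109 gene models (0.615%). The study used these cut-offs with DESeq2 on transcripts averaging at least 10 FPKM. Here they were used with limma on all gene models tested, so the counts are not comparable. The other named genes of the set called with 36 libraries were chosen after their values were seen.

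**Figure D2:**
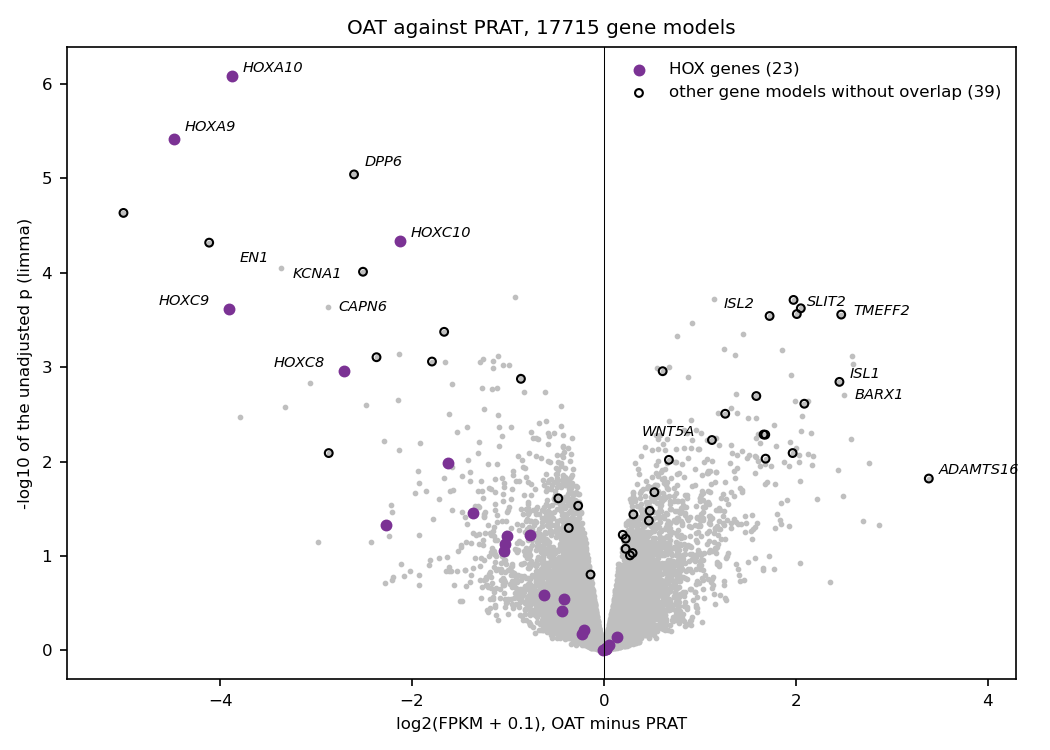
Log2 difference of each of the 17715 gene models (horizontal axis, OAT minus PRAT) against -log10 of its unadjusted p from limma (vertical axis). Filled purple points are the 23 HOX genes and open circles the 39 other gene models whose OAT and PRAT values did not overlap. HOXA9 and HOXA10 lie highest on the left.

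HOXA9 and HOXA10, 2 HOX genes of the posterior groups, fell in OAT. HOXA10 was listed at 0 in all 6 OAT libraries and at 1.74, 0.6254, 1.86, 1.76, 1.22 and 1.46 FPKM in PRAT. The difference was -3.88 ± 0.24 (SE, limma adjusted p = 0.0145), a size that depends on the pseudocount because every OAT value was 0. HOXA9 was at 0.311, 0.102, 0.0207, 0.0406, 0 and 0 FPKM in OAT and at 4.86, 1.63, 4.22, 3.90, 2.87 and 3.82 FPKM in PRAT. It fell by 4.48 on the log2 scale in OAT (SE 0.34, limma adjusted p = 0.0339). In both genes the lowest PRAT library lay above the highest OAT library. PRAT 3, 5 and 6, in which UMOD was at most 0.0276 FPKM, had HOXA9 at 2.87 to 4.22 FPKM. The 16 kidney markers summed to 423, 475 and 655 FPKM in these libraries, and to 471, 368 and 721 FPKM in OAT 3, 5 and 6. The part of kidney transcripts in the HOX values was not tested.

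A further 3 genes of the HOXC cluster also separated the depots fully without passing the paired test. HOXC9 was at 5.50, 0.701, 1.42, 0, 2.14 and 1.66 FPKM in OAT and at 25.2, 8.38, 25.5, 11.9, 20.6 and 21.9 FPKM in PRAT (log2 difference -3.90 ± 0.57 SE, limma adjusted p = 0.299). HOXC8 was at 0 to 1.75 FPKM in OAT and 1.88 to 12.7 FPKM in PRAT (-2.71 ± 0.51, limma adjusted p = 0.478). HOXC10 was low in both depots, at 0 to 0.0678 FPKM in OAT and 0.230 to 0.675 FPKM in PRAT (-2.12 ± 0.24, limma adjusted p = 0.142). With the spread of all 36 libraries the 3 genes passed, with limma adjusted p of 0.000587, 0.00169 and 3.4e-05. HOXC8 passed in 4 of 21 alternatives (adjusted p 0.00169 to 1), HOXC9 in 5 of 22 (0.000555 to 1) and HOXC10 in 5 of 20 (3.4e-05 to 0.889).

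The HOX genes are given here by paralog group, the position of a gene within its cluster, and no test compared the groups. Of 39 HOX genes looked for, 23 were tested, of which 2 passed, both lower in OAT, and 18 had the higher mean in PRAT, with a median difference of -0.77 against -0.009 over all gene models. The median was -0.24 in animals 3, 5 and 6. The 14 genes of groups 1 to 7 had a median of -0.31, ranging between -1.63 and 0.14. None of the 14 had the same sign in all animals. All 9 genes of groups 8 to 10 had the lower mean in OAT, with a median of -2.27, and in 5 of them the depots did not overlap, against 0.248% of all gene models. They varied widely, since HOXD8 averaged 3.21 FPKM in OAT and 7.12 FPKM in PRAT, and HOXB8 0.310 FPKM in OAT and 0.329 FPKM in PRAT. HOXB8 was the smallest of these at -0.22, and its direction turned in some settings. HOXB9 (-2.27), HOXD8 (-1.37) and HOXD10 (-1.04) had the higher level in PRAT in 5 of 6 animals. HOXC6, of group 6, was at 1.49 to 13.1 FPKM in OAT and at 7.87 to 30.2 FPKM in PRAT, with a difference of -1.63 ± 0.47 (limma adjusted p = 0.998). Without the 4 lymphoid-rich libraries and without the block HOXC6 had a limma adjusted p of 0.0449, which ran between 0.0449 and 1 over its 22 alternatives.

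**Figure D3:**
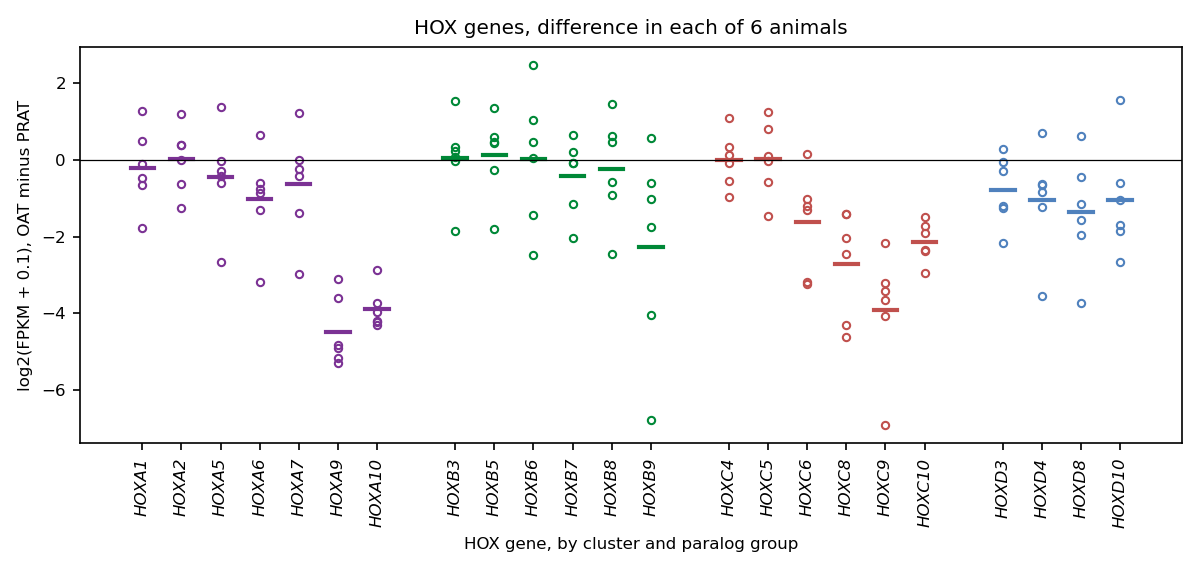
Difference of each of the 23 tested HOX genes (OAT minus PRAT, log2 of FPKM + 0.1) in each of the 6 animals (circles), with the mean as a bar, ordered by cluster A to D and by paralog group. No gene of groups 1 to 7 has the same sign in all animals, while HOXA9, HOXA10, HOXC8, HOXC9 and HOXC10 lie below 0 in every animal.

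A pair of gene models without a symbol showed the same pattern, and was picked after the values were seen. The model evm.model.chr4.427, whose identifier falls between those of HOXC9 and HOXC10, was at 1.62, 0, 0, 0, 0 and 0.128 FPKM in OAT and at 3.74 to 8.80 FPKM in PRAT (-5.01 ± 0.50, limma adjusted p = 0.103). It passed with all 36 libraries (limma adjusted p = 8.04e-07), and its adjusted p over 21 alternatives ran between 8.04e-07 and 0.688. The model evm.model.chr7.320, numbered between HOXA10 and HOXA9, was at most 0.00158 FPKM in OAT and at 0.103 to 0.566 FPKM in PRAT (-1.66). What these models encode is not given by the table, and overlap with the neighbouring genes was not tested.

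In the other depots, HOXA9 averaged 3.91 ± 1.00 FPKM in IAT (inguinal fat), 3.86 ± 1.08 FPKM in BSAT (back subcutaneous fat) and 2.70 ± 1.46 FPKM in SSAT (sternum subcutaneous fat), against 0.0813 ± 0.0440 FPKM in PCAT (pericardial fat) (SD, n = 6 each). OAT averaged 0.0791 ± 0.120 FPKM and PRAT 3.55 ± 1.14 FPKM (SD, n = 6 each). HOXC9 averaged 1.90 ± 1.92 FPKM in OAT and 18.9 ± 7.12 FPKM in PRAT, with 17.6 FPKM in IAT, 15.7 FPKM in BSAT, 9.32 FPKM in SSAT and 0.402 ± 0.414 FPKM in PCAT (SD, n = 6 each). The ranges of HOXA9 in PRAT, IAT, BSAT and SSAT overlapped one another. Group 10 genes differed from this in SSAT, where HOXC10 was at 0.0218 to 0.0624 FPKM, inside the OAT range and below every PRAT library, and HOXA10 averaged 0.369 FPKM, against 1.44 FPKM in PRAT.

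Other developmental transcription factors went in both directions. Of 84 such genes, 51 were tested and none passed, with a median difference of -0.05. At an unadjusted p under 0.05, 8 were higher in OAT and 5 in PRAT, where 2.16% and 2.13% of all gene models were. EN1, an engrailed homeobox gene of the dorsoventral axis, was at 0.128, 0.665, 0.735, 0.139, 2.91 and 1.07 FPKM in OAT and at 8.72, 5.98, 11.1, 0.752, 20.8 and 13.6 FPKM in PRAT. PRAT was higher in 6 of 6 animals, although the ranges overlapped through PRAT 4 (-3.37 ± 0.42, limma adjusted p = 0.216). ALX1, a homeobox gene of the craniofacial mesenchyme, averaged 0.302 ± 0.597 FPKM in OAT and 3.66 ± 2.40 FPKM in PRAT (SD, n = 6 each, difference -3.79). IRX5 was at 0 to 3.96 FPKM in OAT and 0.590 to 7.49 FPKM in PRAT (-2.14).

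Factors with the higher mean in OAT included ISL1, BARX1, TCF21, WT1, PITX1 and SIX2. ISL1, a LIM homeobox gene of the second heart field and motor neurons, was at 1.54, 0.378, 0.0633, 0.945, 0.589 and 0.323 FPKM in OAT and was listed at 0 in PRAT except at 0.0424 FPKM in PRAT 3 (2.46 ± 0.48, limma adjusted p = 0.550). BARX1, which patterns the stomach mesenchyme, was at 0.435, 3.70, 3.27, 1.32, 4.15 and 3.05 FPKM in OAT and 0.169 to 0.552 FPKM in PRAT (2.50 ± 0.52, limma adjusted p = 0.634). OAT 1 was the only OAT library within the PRAT range. TCF21, a mesodermal factor of visceral organs, was at 1.98 to 5.31 FPKM in OAT and at 0.0596 to 3.51 FPKM in PRAT (2.04). It was lower in OAT only in animal 4. WT1, a factor of mesothelium and kidney progenitors, was at 0.500 to 2.97 FPKM in OAT and 0.106 to 0.443 FPKM in PRAT, without overlap (1.67 ± 0.41, limma adjusted p = 0.931). WT1 was highest in OAT 1, the library with mesothelial transcripts, and the part of that library in its mean was not tested.

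ISL1, BARX1, TCF21 and the related ISL2 passed when all 36 libraries shared the spread, with limma adjusted p of 0.000179, 0.000179, 0.0242 and 4.53e-05, and so did EN1 (0.000166) and ALX1 (0.00884). ISL1 passed in that setting alone, 1 of 20 alternatives, while BARX1, TCF21 and ALX1 passed in 4 of 21, ISL2 in 4 of 19 and EN1 in 3 of 21, and the adjusted p of each reached 1 in other settings. ISL1 was at or under 0.266 FPKM in every library of the other depots, and BARX1 at or under 0.379 FPKM in IAT, PCAT, BSAT and SSAT. These low values enter the shared spread. The SE was 0.342 for ISL1 and 0.35 for BARX1 with 36 libraries, against 0.481 and 0.52 in the paired fit. The adjusted p with 36 libraries thus does not measure the spread of OAT and PRAT alone. TCF21 was highest in PCAT, at 14.9 ± 5.36 FPKM, and at most 0.309 FPKM in the 3 subcutaneous depots (SD, n = 6). PITX1, a hindlimb factor, averaged 2.61 ± 2.61 FPKM in OAT and 0.222 ± 0.186 FPKM in PRAT (SD, n = 6 each, difference 2.60), and SIX2 averaged 4.48 ± 4.82 FPKM in OAT and 0.276 ± 0.249 FPKM in PRAT (2.71). TBX15, a factor of subcutaneous adipocytes in mice, was at 0.296 to 2.35 FPKM in OAT and 0.287 to 3.44 FPKM in PRAT, with a difference of -0.63 and a 95% interval of -2.11 to 0.85.

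**Figure D4:**
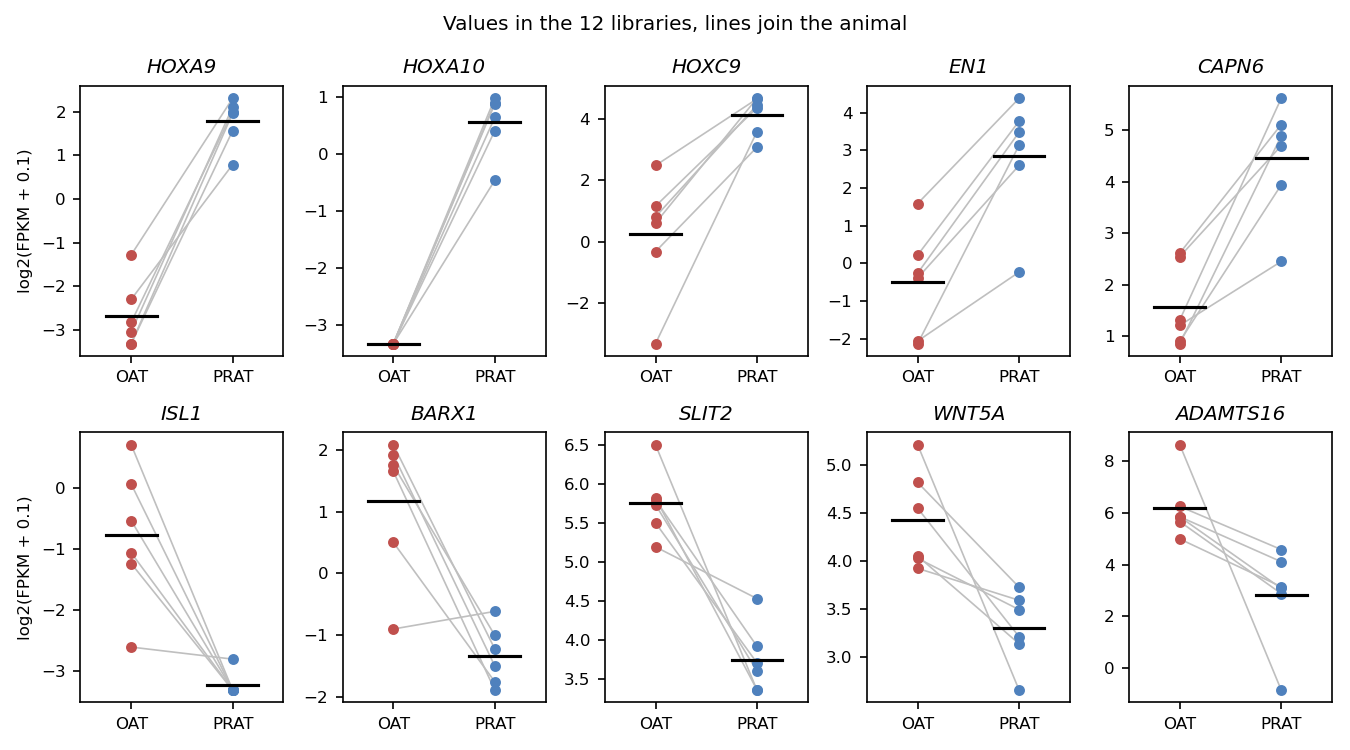
Values of 10 genes in the 12 libraries as log2(FPKM + 0.1), with OAT in red on the left, PRAT in blue on the right, grey lines joining the libraries of an animal and black bars for the means. The upper row holds genes with the lower mean in OAT and the lower row genes with the higher mean in OAT. HOXA10 sits at the floor of 0 FPKM in all 6 OAT libraries.

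Among secreted guidance and WNT molecules, SLIT2 and WNT5A had the higher mean in OAT, and neither passed the paired test. SLIT2, a secreted axon repellent that also acts on fat and vessels, was at 45.4, 90.9, 55.6, 36.6, 53.4 and 56.5 FPKM in OAT and at 13.003, 10.2, 15.1, 23.1, 12.1 and 10.2 FPKM in PRAT. The depots did not overlap (2.01 ± 0.30, limma adjusted p = 0.299), and the highest library of the 4 other depots had 26.3 FPKM. SLIT2 passed without the animal block (limma adjusted p = 0.00679), with all 36 libraries (0.00476) and without both the 4 lymphoid-rich libraries and the block (0.00341), and its adjusted p over 22 alternatives ran between 0.00341 and 1. It was the only gene of 52 tested for axon guidance with no overlap, and the list's median was -0.02.

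WNT5A, a ligand of the noncanonical WNT pathway, was at 15.0 to 36.8 FPKM in OAT and 6.19 to 13.1 FPKM in PRAT, without overlap (1.13 ± 0.29, limma adjusted p = 0.931). RSPO3, an enhancer of WNT signalling, was at 0.386, 4.432, 2.47, 1.89, 2.44 and 3.23 FPKM in OAT and 0.0967 to 0.652 FPKM in PRAT (2.00). Without the 4 lymphoid-rich libraries and without the block its limma adjusted p was 0.00766, and over 21 alternatives the range was 0.00766 to 1. FZD10, a WNT receptor, and DKK2, a secreted WNT antagonist, had the higher mean in PRAT. FZD10 averaged 1.10 ± 0.529 FPKM in OAT and 2.92 ± 1.43 FPKM in PRAT (SD, n = 6 each), and DKK2 10.5 ± 5.15 FPKM in OAT and 24.96 ± 10.8 FPKM in PRAT. None of the 45 WNT genes tested passed, and 24 had the higher mean in OAT and 21 in PRAT (median 0.14).

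Several genes outside the lists were called with all 36 libraries, and these were picked after their values were seen. None of those named here and in the next paragraph passed the paired test. DPP6, a subunit of potassium channels, was listed at 0 in all OAT libraries and was at 0.303, 0.486, 0.414, 0.992, 0.429 and 0.618 FPKM in PRAT (limma adjusted p = 0.0537). It passed in 10 of 20 alternatives, with an adjusted p between 0.000452 and 0.496. KCNA1, a potassium channel, was at 0 to 0.131 FPKM in OAT and 0.294 to 1.56 FPKM in PRAT. CAPN6, a calpain without protease activity, averaged 3.31 ± 2.01 FPKM in OAT and 26.5 ± 15.2 FPKM in PRAT (SD, n = 6 each, difference -2.87). TEX11, a meiosis gene, was at 0.549, 4.31, 2.36, 0, 2.53 and 2.99 FPKM in OAT and at 35.4, 3.76, 30.6, 3.02, 17.5 and 24.96 FPKM in PRAT. It was at most 0.337 FPKM in the other 4 depots, and its 2 low PRAT libraries were the lymphoid-rich ones. In the paired test the limma adjusted p was 0.216 for KCNA1, 0.299 for CAPN6 and 0.745 for TEX11. KCNA1 passed in 1 of 20 alternatives, CAPN6 in 3 of 22 and TEX11 in 4 of 22.

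On the OAT side TMEFF2, a membrane protein with follistatin domains, was at 0.776 to 4.38 FPKM in OAT and 0.163 to 0.528 FPKM in PRAT, without overlap (2.47). PTK7, a receptor of planar cell polarity, averaged 13.9 ± 9.31 FPKM in OAT and 3.22 ± 2.60 FPKM in PRAT (SD, n = 6 each) and was higher in OAT in 6 of 6 animals. A2M, the protease inhibitor alpha-2-macroglobulin, averaged 272 ± 136 FPKM in OAT and 84.9 ± 23.2 FPKM in PRAT without overlap (SD, n = 6 each). A2M has another gene model in the table, and reads that both could share make its level uncertain. In the paired test the limma adjusted p was 0.299 for TMEFF2, 0.686 for PTK7 and 0.64 for A2M. TMEFF2 passed in 4 of 21 alternatives, PTK7 in 1 of 21 and A2M in 1 of 22.

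Matrix genes went in both directions by class, without any call. Of 27 laminin and integrin genes 11 had the higher mean in OAT and 16 in PRAT (median -0.07). Of 51 matrix proteoglycan and glycoprotein genes tested, 39 had the higher mean in OAT (median 0.24) and 3 of them, 5.88% against 1.55% of all gene models, were higher in OAT in all 6 animals. FMOD, a collagen-binding proteoglycan, was at 127, 33.7, 34.6, 25.6, 30.2 and 32.9 FPKM in OAT and at 4.93, 6.61, 8.95, 67.2, 16.3 and 6.18 FPKM in PRAT. PRAT 4, one of the lymphoid-rich libraries, was the only PRAT library within the OAT range (1.80 ± 0.70, limma adjusted p = 1). EPYC, another small proteoglycan, averaged 151 ± 71.1 FPKM in OAT and 54.2 ± 32.2 FPKM in PRAT, and was higher in OAT in 6 of 6 animals (SD, n = 6 each). VCAN, the large proteoglycan versican, averaged 407 ± 119 FPKM in OAT and 250 ± 163 FPKM in PRAT (0.85, 95% interval 0.07 to 1.63). The fibronectin-domain gene FNDC1 had a difference of 2.13.

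COL1A1, the main chain of fibrillar collagen, was at 7601, 18898, 4963, 5682, 5674 and 12960 FPKM in OAT and at 1262, 827, 1842, 7984, 5336 and 1269 FPKM in PRAT (1.91 ± 0.68, limma adjusted p = 1). COL1A2 followed it at 1.84, and the basement membrane chain COL4A5 was at 1.63. Of 35 collagen genes 19 had the higher mean in OAT (median 0.13), close to the share over all gene models (8582 of 17715). Without the 4 lymphoid-rich libraries and the block the collagen median was 0.44. LOXL1, which crosslinks elastin, averaged 161 ± 66.8 FPKM in OAT and 70.3 ± 31.1 FPKM in PRAT and was higher in OAT in 6 of 6 animals (SD, n = 6 each). ADAMTS16, a secreted protease, was at 31.8, 400, 50.7, 57.8, 76.3 and 57.7 FPKM in OAT and at 8.75, 0.451, 7.26, 17.2, 23.9 and 8.37 FPKM in PRAT, without overlap. Its difference of 3.39 ± 1.06 (limma adjusted p = 1) was spread widely, since animal 2 held both the highest and the lowest value. CXCL14, a chemokine made by fibroblasts, was higher in OAT in 6 of 6 animals (1.17).

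Macrophage and complement genes showed the same side with no call. Of 19 macrophage and monocyte genes 17 had the higher mean in OAT (median 0.72), and 5 were higher in OAT at an unadjusted p under 0.05, against 2.16% of all gene models. CD163, a scavenger receptor of tissue macrophages, averaged 28.2 ± 16.1 FPKM in OAT and 14.2 ± 9.12 FPKM in PRAT, and the transglutaminase F13A1 156 ± 97.6 FPKM in OAT and 66.9 ± 35.3 FPKM in PRAT (SD, n = 6 each). C1QA was at 53.3 and 44.0 FPKM in the lymphoid-rich OAT 1 and OAT 4, against 4.16 to 9.55 FPKM in the other OAT libraries and 1.87 to 11.5 FPKM in PRAT. Without the 4 lymphoid-rich libraries and without the block the list's median was 0.35. Of 28 complement genes 23 had the higher mean in OAT (median 0.55), with C4A at 119 ± 68.2 FPKM in OAT and 55.2 ± 27.9 FPKM in PRAT (SD, n = 6 each). In such whole tissue, more cells of a type and more RNA per cell cannot be told apart.

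Energy metabolism leaned towards PRAT by small amounts. All 13 ATP synthase genes had the lower mean in OAT, with a median of -0.37, and 5 of them, 38.5% against 2% of all gene models, were lower in OAT in 6 of 6 animals. None passed. ATP5PF was at 53.6, 30.3, 40.7, 39.7, 41.0 and 36.1 FPKM in OAT and at 63.6, 53.5, 70.1, 45.2, 49.5 and 46.9 FPKM in PRAT (-0.45 ± 0.13, limma adjusted p = 0.998), so each animal had less in OAT although the depots overlapped. ATP5PB (-0.43) and ATP5PO (-0.38) were also lower in OAT in all animals, and ATP5F1C (-0.43) in 5 of 6. The list's median was -0.50 without the 4 lymphoid-rich libraries and -0.38 in animals 3, 5 and 6. Of the 34 genes of respiratory chain complex I 33 had the lower mean in OAT (median -0.19), and of 10 of complex IV 9 did (-0.33). For the citrate cycle and pyruvate metabolism it was 33 of 37 (-0.26). The complex I medians were -0.21, -0.52 and -0.38 in animals 1 to 3. In animals 4 to 6 they were -0.014, -0.039 and 0.032, so the complex I lean came mainly from animals 1 to 3.

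LDHB, the lactate dehydrogenase subunit of oxidative tissues, was at 390, 412, 539, 305, 307 and 435 FPKM in OAT and at 959, 433, 899, 343, 413 and 534 FPKM in PRAT (-0.50 ± 0.18, limma adjusted p = 1). The mitochondrial glycerol phosphate dehydrogenase GPD2 was lower in OAT in 6 of 6 animals (-0.43). HADHA, of fatty acid oxidation, averaged 1359 ± 562 FPKM in OAT and 1865 ± 873 FPKM in PRAT (SD, n = 6 each), with a difference of -0.40 and a 95% interval of -1.05 to 0.25. Kidney is rich in mitochondria, and PRAT 1 carried kidney transcripts. Without PRAT 1 and the 4 lymphoid-rich libraries the medians were -0.42 for ATP synthase, -0.25 for complex I and -0.30 for the citrate cycle.

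**Figure D5:**
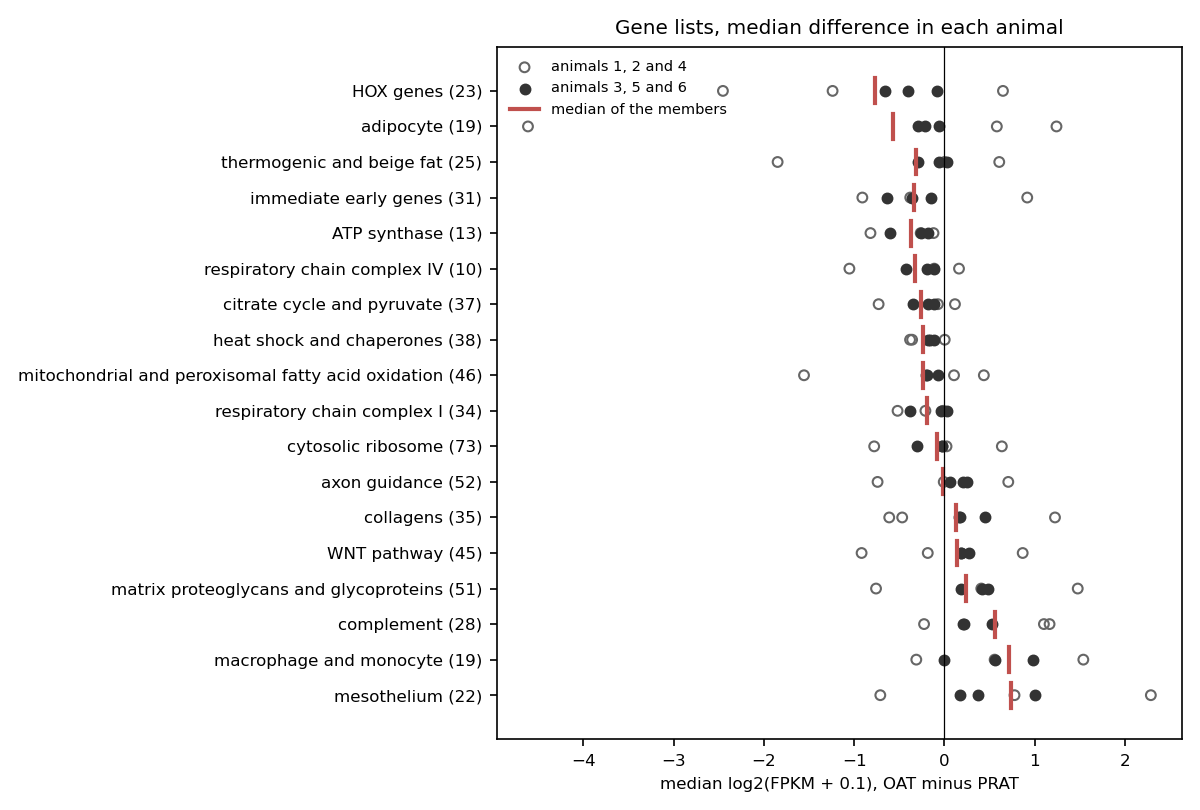
Median difference (OAT minus PRAT, log2 of FPKM + 0.1) of the tested members of 18 gene lists, with the number tested in brackets. Filled circles are animals 3, 5 and 6, open circles animals 1, 2 and 4, and red bars the median of the members' fitted differences. ATP synthase lies below 0 in all 6 animals, while the adipocyte list ranges between -4.61 and 1.24.

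Heat shock genes were lower in OAT in most animals, again without a call. Of 38 genes tested 32 had the lower mean in OAT (median -0.24), and 6 of them, 15.8% against 2% of all gene models, were lower in OAT in all 6 animals. HSPD1, the mitochondrial chaperonin HSP60, was at 593, 516, 592, 439, 431 and 670 FPKM in OAT and at 805, 807, 863, 604, 525 and 840 FPKM in PRAT (-0.45 ± 0.10, limma adjusted p = 0.736). Its partner HSPE1 had a difference of -0.49. The inducible HSP70 genes HSPA1A and HSPA1B had differences of -1.11 and -1.26 and the cochaperone DNAJB1 -0.78, all lower in OAT in 6 of 6 animals. HSPA1A and HSPA1B are near-identical genes, so reads could be split between them. The list's median was -0.20 without the 4 lymphoid-rich libraries and -0.17 in animals 3, 5 and 6.

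Immediate early genes, which respond quickly to stimulation and stress, had the lower mean in OAT as well, without a call. Of 31 genes 25 had the lower mean in OAT (median -0.34). Of these, 7 had an unadjusted p under 0.05, against 2.13% of all gene models. Only 1, 3.23% against 2% of all gene models, was lower in OAT in all 6 animals. The list's median was 0.92 in animal 2 and below 0 in the other 5 animals. EGR3 averaged 5.21 ± 1.24 FPKM in OAT and 12.2 ± 6.97 FPKM in PRAT, CCN1 152 ± 55.2 FPKM in OAT and 312 ± 95.9 FPKM in PRAT, and EGR1 565 ± 177 FPKM in OAT and 970 ± 419 FPKM in PRAT (SD, n = 6 each). The part of tissue handling in these values was not tested.

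Genes of the adipocyte itself could not be told apart between the depots at this spread. The 19 adipocyte genes had a median of -0.57, which was 1.24 in animal 2 and -4.61 in animal 1, whose OAT library had few adipocyte transcripts. In animals 3, 5 and 6 it was -0.23. ADIPOQ had a difference of -0.69 with a 95% interval of -3.004 to 1.62, LIPE (hormone-sensitive lipase) -0.69 with -2.73 to 1.35, and GPD1 (glycerol phosphate dehydrogenase of triglyceride synthesis) -0.75 with -2.43 to 0.93. Without animal 1 the 3 differences were 0.37, 0.24 and 0.02. The succinate receptor SUCNR1 was higher in OAT in 6 of 6 animals, at 25.4 ± 9.62 FPKM in OAT and 14.6 ± 6.27 FPKM in PRAT (SD, n = 6 each).

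Of 25 thermogenic genes 21 had the lower mean in OAT (median -0.32), and none had an unadjusted p under 0.05. The median was -0.12 in animals 3, 5 and 6. UCP1, the uncoupling protein of brown fat, was at 0.00638, 0.495, 1.66, 0.0233, 0.0261 and 0.0916 FPKM in OAT and at 0.272, 0.0372, 2.68, 0, 0.0173 and 0.0431 FPKM in PRAT. Only animal 3 exceeded 1 FPKM, in both depots, and the difference was 0.08 with a 95% interval of -1.04 to 1.20. PRDM16, a regulator of brown and beige fat, averaged 10.6 ± 4.69 FPKM in OAT and 7.93 ± 1.87 FPKM in PRAT, and TMEM26, a beige fat surface marker in mice, 50.9 ± 33.7 FPKM in OAT and 88.7 ± 51.7 FPKM in PRAT (SD, n = 6 each). Of growth factors, PAPPA2, a protease of IGF binding proteins, was at 0 to 3.30 FPKM in OAT and was listed at 0 in 5 of 6 PRAT libraries, while IGFBP3 was higher in OAT in 6 of 6 animals (0.82). DLK1, the preadipocyte factor, averaged 55.0 ± 27.2 FPKM in OAT and 43.2 ± 30.96 FPKM in PRAT (0.29, 95% interval -1.66 to 2.23).

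Whether the depots differed to another extent in the 3 females than in the 3 males was tested as the difference of the paired effects. No gene model passed (0%), the smallest limma adjusted p was 1 after rounding, and 160 gene models (0.903%) had an unadjusted p under 0.05. Limma was the only tool run. HOXA9 had a difference of -5.01 in females and -3.95 in males, and HOXA10 of -3.97 in females and -3.78 in males, so both were lower in OAT in each sex. The gene models with the smallest p were evm.model.chr22.360, IQCF5, CH25H, evm.model.chr17.408 and CCDC65. CH25H, which makes 25-hydroxycholesterol, had a difference of -1.05 in females and 0.66 in males (limma adjusted p = 1). IQCF5 was listed at 0 in the OAT of all 3 males, and at 1.80, 0.366 and 0 FPKM in that of females, with 0.908, 0.181 and 0 FPKM in PRAT of females and 0.571, 0.288 and 0.563 FPKM in PRAT of males.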

How the data were processed

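RNA of 12 libraries, OAT and PRAT of 6 river buffaloes, was analysed out of 36. The authors filtered the reads with Fastp, aligned them with HISAT2 2.2.1 to a river buffalo assembly of their own, ran StringTie 2.1.4 and deposited FPKM values per gene model. Library kit names differ between the labels (TruSeq RNA) and the study's methods (rRNA depletion). The table held 23032 gene models, 6773 without a symbol. Depth is not in the table, so no counting intervals were given. FPKM summed to 822195 to 838028 in OAT and 827121 to 841987 in PRAT.

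Log2(FPKM + 0.1) was fitted with limma 3.58.1 (R 4.3.3), with animal and depot as terms and moderation following the mean, over 17715 gene models. Same-numbered libraries are paired because they come from the same animal. The correlation of their deviations from the depot means was above 0.1 in 4 of 6 pairs and ran from -0.573 (animal 2) and -0.238 (animal 1) to 0.741. Animals 1 and 2 have a lymphoid-rich library in only one of the depots. The p-values measure the spread between these 6 animals. The scripts were tested on simulated data.

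The genes named are called genes with the same sign in all animals, up to 8 members with the largest difference and the key members of the 56 lists, genes the study names and the 5 with the smallest p in the sex test. The text names a part of them, and some are not reported here. The members and lists were chosen with earlier results of these data known. Where a symbol had more than 1 gene model, lists took the model of largest mean. Alternatives covered the pseudocount, filters, scaling, the block, the libraries and each animal left out. Figures were drawn with matplotlib in Python.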

Additional observations from a re-analysis of the deposited data

Results flagged for a closer look

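Of 188 groups of 6 values examined, 44 held a library far from the others by Dixon's ratio, 23.4%. The limit used gives about 1 in 20 for independent groups of normal values. FPKM values are skewed and some are 0, and the groups share libraries and related genes. The share of 23.4% was therefore not compared with chance. The flagged values gathered in a few libraries. PRAT 1 was high for LRP2 (1572 FPKM), CUBN (1200), UMOD (8.46) and the summed kidney markers (4167), for HOXB9 (10.9), CD163 (31.8) and evm.model.chr7.320 (0.566). OAT 1 was high for MUC16 (44.5 FPKM), KRT8 (425), MSLN (9.64) and the summed mesothelium markers (1180), for the summed B cell markers (2996), for FMOD (127), LRP2 (77.7), HOXA9 (0.311), HOXC10 (0.0678) and evm.model.chr4.427 (1.62). PRAT 4 was high for HOXD10 (1.03 FPKM), TCF21 (3.51), COL4A5 (39.0), FMOD (67.2), VCAN (562), C4A (110), HSPA1A (507) and HSPA1B (176). OAT 4 was high for ALX1 (1.49 FPKM), HSPA1A (245), HSPA1B (89.8), DNAJB1 (37.1), IQCF5 (1.80) and evm.model.chr7.320 (0.00158).

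OAT 2 was high for SLIT2 (90.9 FPKM), TBX15 (2.35), ADAMTS16 (400.2), C4A (251) and CH25H (53.2), and PRAT 2 was low for PRDM16 (4.25). UCP1 was high in both libraries of animal 3, at 1.66 FPKM in OAT 3 and 2.68 FPKM in PRAT 3, and PRAT 3 was also high for ISL1 (0.0424) and PAPPA2 (0.522). EN1 was high in OAT 5 (2.91 FPKM), and F13A1 (133) and EGR3 (25.7) in PRAT 5.

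In 3 of the 88 genes examined all females went one way and all males the other. These 3 had been named for being among the 5 smallest p of the sex test. Opposite signs are likely under that choice and add no support, and the share over all gene models was not taken. The mean difference in females minus that in males was -1.71 for CH25H, 1.41 for CCDC65 and 2.02 for evm.model.chr17.408. Tested across all gene models, none of the 3 passed (limma adjusted p = 1).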

How the results depend on the processing

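The count of 2 gene models, both higher in PRAT, was 3 with pseudocount 1, without a filter on low values, with the mean over 36 libraries above 0.1 FPKM, with TPM scaling and without the trend, 1 with quantile normalization, 0 with a mean of at least 1 or 10 FPKM (555 and 280 at an unadjusted p under 0.05), 8 without the replicate block, 28 with all 36 libraries, 31 without both the 4 lymphoid-rich libraries and the replicate block, 6 with a lymphoid covariate, 0 in animals 3, 5 and 6, and 109 at the study's unadjusted p and log2 difference of 1.5 (66 in OAT, 43 in PRAT). Chosen after seeing the data, leaving out PRAT 1 as well, again without the block, gave 28, and 36 libraries less those 5 gave 35. The limit of 1 FPKM removed HOXA10 before testing, and that of 10 FPKM removed both HOXA9 and HOXA10. The 0 at 10 FPKM is therefore no test of these genes. Leaving out each animal gave 0 to 2: 2 without animal 1 (HOXA10 and evm.model.chr4.427) or 2 (HOXA9 and HOXA10), and 0 without animal 3, 4, 5 or 6, with 395, 884, 457 and 481 at an unadjusted p under 0.05. Of 2 genes called, HOXA10 passed in 14 of 20 alternatives (adjusted p 1.98e-07 to 0.198) and HOXA9 in 12 of 21 (4.83e-12 to 0.341), and both stayed below 0. For the sex test the count stayed at 0 except for 79 at the study's unadjusted p and log2 difference. The counts at these cut-offs are from limma over all gene models tested, without the DESeq2 test and the 10 FPKM limit of the study. The difference of UCP1 turned to -0.028 with pseudocount 1, to -0.045 in animals 3, 5 and 6 and ran between -0.33 and 0.46 when an animal was left out. That of HOXB8 turned to 0.070 in animals 3, 5 and 6 and to 0.050 with 36 libraries less 5, and ran between -0.56 and 0.22 when an animal was left out. Leaving out an animal also turned ADIPOQ (-1.16 to 0.37), GPD1 (-1.14 to 0.018), LIPE (-1.12 to 0.24), PRDM16 (-0.030 to 0.67) and DLK1 (-0.15 to 1.18). The cause was not tested. Depth limits low genes such as HOXC10, and the small spread of values at 0 FPKM is set by the pseudocount.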
